A study of Drosophila melanogaster with 18 samples.

Results

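The transcriptome of H2Av-depleted *Drosophila* S2R+ cells was compared between 14 and 30 °C. Of the 18 arrays of the series, 6 belonged to this comparison by their titles, 3 with H2Av RNAi at 14 °C and 3 with H2Av RNAi at 30 °C. Of the 32162 probes, 20765 were tested, namely those that the scanner software marked as well above background on 2 or 3 H2Av RNAi arrays of either temperature. S2R+ is an adherent line derived from embryos. Cells were plated, received 30 µg of dsRNA per dish 24 h later, and after 4 more days were moved to the final temperature for 24 h. The number of plated cells was adjusted to that temperature, with 700000 cells for 14 °C, 650000 for 25 °C and 400000 for 30 °C, so plating density and temperature cannot be told apart. H2Av RNAi at 14, 25 and 30 °C (3 arrays each) used dsRNA of *His2Av*. lacZ RNAi at the same temperatures (3 arrays each) used dsRNA of a bacterial gene that flies lack, and served as control. The question was how transcript levels responded to the whole span of temperature when H2Av was scarce, and whether that response differed from the response of control cells.

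H2Av is the only H2A variant of *Drosophila* and serves both as H2A.Z, which marks nucleosomes around promoters, and as H2A.X, which is phosphorylated at DNA breaks. The Domino complex places it into chromatin. In plants, loss of H2A.Z from nucleosomes has been linked to the sensing of warmth, which is why this variant has been of interest for temperature responses. Flies are ectotherms, so the temperature of their cells follows that of the surroundings. Enzymes slow down in the cool, membranes stiffen and microtubules become less stable, while warmth strains protein folding and induces heat shock proteins, the chaperones that hold or refold damaged proteins.

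The reagent behind the depletion is defined by the primers with which *His2Av* templates for dsRNA were amplified. *His2Av* lies on chromosome 3R. The gene-specific parts of the 4 primers are shown, 5′ to 3′ and in capitals throughout, because they delimit the amplicons; a T7 promoter tail precedes each of them. The sources used here give 2 amplicons for this gene and do not say which was used for the arrays.
H2Av_1, primer PR60: CGAAGGACTTGAAAGTGAAACG
H2Av_1, primer PR61: TGTTTCATACTCAACCTCGCC
H2Av_2, primer FB8: AGAAACAACTCGCACGCTC
H2Av_2, primer FB9: CGAATCCTTGCCTGCTTTAC

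All levels below are log2 signals after quantile normalization, so a difference of 1 is 2-fold, and a change is the mean at 14 °C minus the mean at 30 °C. The *His2Av* transcript had signals of 11.90, 13.65 and 11.61 on the H2Av RNAi arrays at 14 °C, against 12.10, 12.10 and 12.33 at 30 °C. It did not differ between the temperatures (change 0.21, SE 0.52, limma adjusted p 0.779), but replicate 2 at 14 °C stood above the other 5 arrays. In lacZ RNAi the signals lay between 15.26 and 15.79 at 14 °C and between 15.96 and 16.25 at 30 °C, above all H2Av RNAi arrays. Without replicate 2 at 14 °C the change was -0.42. The other *His2Av* probe showed the same outlying array, with 8.08, 10.93 and 8.78 at 14 °C, against 8.50, 8.92 and 8.52 at 30 °C. In H2Av RNAi at 25 °C the signals were 11.92, 13.82 and 12.73, and 8.05, 9.94 and 8.49 at the other probe. Replicate 2 was thus the highest there as well. Without replicate 2 at 14 °C, 4678 of 20765 probes were called in the comparison described below, instead of 5210. *Act5C*, a cytoplasmic actin, had a change of -0.02 (SE 0.31, adjusted p 0.967), which was 0.27 under scaling to the 75th percentile, and its other probe had -0.52 (adjusted p 0.0127).

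Arrays correlated with Pearson's r of 0.9798 to 0.9881 at 14 °C and 0.9834 to 0.9952 at 30 °C, and with 0.9426 to 0.9546 between these temperatures. The median SD of a probe was 0.291 at 14 °C and 0.222 at 30 °C. Replicate 3 at 30 °C was the dimmest array, with 56.2% of its spots well above background and a median signal of 39.7, whereas the other 5 arrays had 59.8% to 65.1%. Each group of 3 arrays lay on a slide of its own, scanned in the order of temperature. Slide and scan order therefore cannot be told apart from temperature or from RNAi group. S2R+ cells resemble blood cells, and 19 of 23 blood cell markers were measured, with *srp* (*serpent*, a GATA factor of blood cells) between 13.25 and 14.22 at 14 °C and between 13.85 and 14.45 at 30 °C. In bulk RNA, fewer cells of a type and less RNA per cell cannot be told apart.

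A total of 5210 probes, 25.1% of those tested, differed between 14 and 30 °C at an adjusted p under 0.05 and a change of at least 2-fold. Of these, 2474 (11.9%) were higher and 2736 (13.2%) were lower at 14 °C, so 47.5% of the called probes were higher. This balance depended on the scaling between arrays. When arrays were scaled to their 75th percentile instead, the median change of all probes was 0.09, against -0.04, and 2782 probes were higher and 1945 lower (58.9% higher). The median change was 1.64 (3.11-fold) for the probes that rose and -1.54 (2.90-fold) for those that fell. At least 4-fold changes were seen for 807 rising and 656 falling probes, and at least 16-fold changes for 61 and 12. The arrays of both temperatures did not overlap for 98.0% of the called probes, against 55.3% of all probes tested. A group without signal makes a fold change uncertain, and 384 (15.5%) of the rising probes were not well above background on any array at 30 °C, as were 500 (18.3%) of the falling probes at 14 °C. Among the 16660 probes well above background on all 6 arrays, 3480 (20.9%) were called, 1619 higher and 1861 lower. Background correction by normexp, which damps changes of dim probes, lowered the total to 2718 (1370 higher and 1348 lower).

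**Figure D1:**
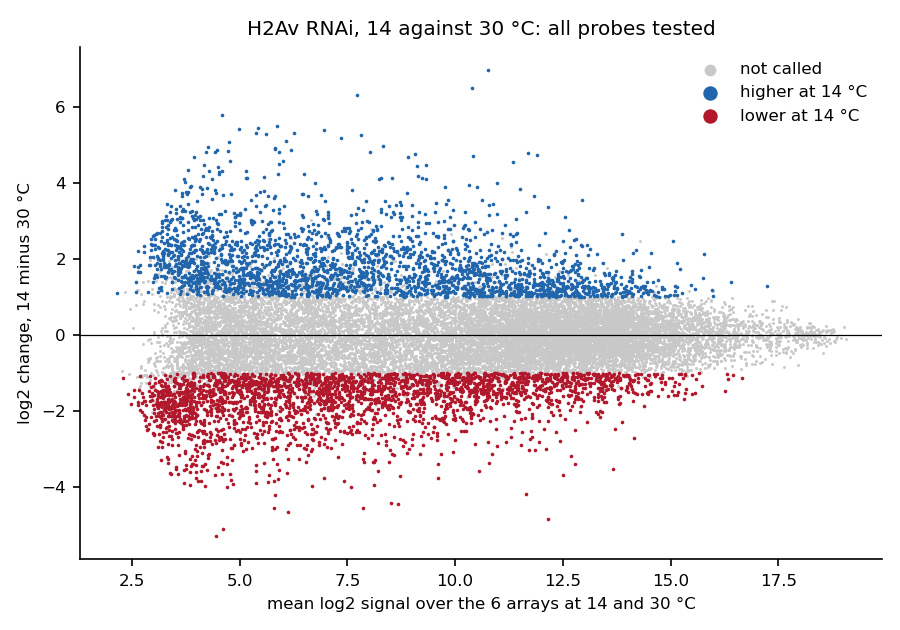
Each point is 1 of 20765 probes in H2Av RNAi, plotted by its mean log2 signal over the 6 arrays (x axis) and its log2 change, 14 minus 30 °C (y axis); colours mark called rises and falls. Called probes, 2474 higher and 2736 lower at 14 °C, occur over the whole range of signal.

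A gene symbol was found for 14106 of the tested probes (67.9%), covering 9526 genes. When each gene was represented by its tested probe with the highest mean, 1002 genes (10.5%) rose and 1144 (12%) fell at 14 °C, with a median change of -0.03 over all genes. The gene groups below are set against these values.

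Among the genes with the largest rises that had signal at both temperatures was *CG13694*, on chromosome 2L. Its signal was 13.88, 13.04 and 13.95 at 14 °C, against 7.28, 7.07 and 7.06 at 30 °C (limma adjusted p 1.74e-09), which is a change of 6.49 (SE 0.25) or 89.7-fold. Every array at 14 °C was far above every array at 30 °C, and the level at 25 °C (10.81, 10.29 and 10.53) lay midway. *PH4alphaSG1* on 3R, an alpha subunit of prolyl 4-hydroxylase, is part of the enzyme that hydroxylates collagen. It had 10.74, 10.49 and 11.40 at 14 °C, against 4.51, 4.51 and 4.69 at 30 °C (change 6.31, SE 0.42, adjusted p 1.73e-07), and its other probe had a change of 5.79. Most of its rise lay below 25 °C, where it had 6.41, 6.49 and 6.79. *Alp11*, an alkaline phosphatase gene, had 10.19, 10.01 and 11.15 at 14 °C, against a mean of 5.20 ± 0.18 at 30 °C (SD, n = 3; change 5.25, SE 0.26, adjusted p 1.63e-08). *Anp*, which encodes the antibacterial peptide andropin of the male genital tract, had 10.22, 10.75 and 11.48 at 14 °C, against 5.58, 5.91 and 6.06 at 30 °C (change 4.97, adjusted p 1.29e-07). Replicate 3 was the highest of the 14 °C arrays for each of these genes.

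Other genes with large rises were at background at 30 °C, so that only a lower bound of the fold difference can be given. *Bfc*, which encodes a cofactor for expression of the phagocytosis receptor croquemort, had 8.41, 8.52 and 8.92 at 14 °C and was not well above background at 30 °C, a rise of at least 42.7-fold (adjusted p 3.78e-08). The rise was at least 32.2-fold for *CG31140*, at least 30.5-fold for *CG9021*, at least 28.2-fold for *CG8813*, at least 21.6-fold for *unc79*, which encodes a partner of the sodium leak channel, and at least 14.7-fold for *slou*, a homeobox gene of muscle founder cells. The bound sets the brighter mean against the dimmest signal counted as well above background. *alpha-Est8*, a member of the alpha-esterase cluster, had a change of 5.18 (adjusted p 5.98e-06) and was well above background on 2 of 3 arrays at 30 °C. *Jhbp15*, of the family of juvenile hormone binding proteins, had a change of 5.30 (adjusted p 2.56e-06) and was well above background on 1 of 3 arrays there. The 6 probes of *CG31140* ranged from a change of 0.34 to 5.43, so that its rise was not seen by all of them.

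Among the genes with the largest falls was *Pde6*, a cGMP phosphodiesterase gene on 3R, with 7.11, 6.96 and 7.43 at 30 °C and no signal well above background at 14 °C, a fall of at least 19.7-fold (adjusted p 1.33e-06). *Hsp23* had 9.06, 9.57 and 10.58 at 14 °C, against 14.09, 14.82 and 14.87 at 30 °C (change -4.86, SE 0.44, adjusted p 2.3e-06), and is described with the other chaperones. *CG34355* had 6.44, 4.71 and 5.57 at 14 °C, against 10.50, 10.10 and 9.84 at 30 °C (change -4.57, SE 0.56, adjusted p 2.55e-05). The arrays of both temperatures did not overlap for any of these, as the rule for choosing them required. *CG31974* had a change of -4.45 (adjusted p 4.1e-07) and its other probe -3.84, and *CG6790* had -3.98 (adjusted p 1.58e-06). *yellow-d*, of the yellow family of secreted proteins, had a change of -4.57 (adjusted p 9.61e-07), and its level at 25 °C (4.43, 4.35 and 4.39) was close to the 14 °C level of 3.52, 3.49 and 3.54. *mspo*, which encodes M-spondin, had 5.35, 7.17 and 6.34 at 14 °C, against 10.77, 10.69 and 10.67 at 30 °C (change -4.42, adjusted p 9.49e-07). *TpnC41C*, a troponin C gene, had 5.36, 5.61 and 5.78 at 14 °C, against 9.25, 9.69 and 9.82 at 30 °C (adjusted p 1.63e-06), and its other probes had changes of -3.35 and -3.02. *nanos*, a translational repressor of the germline, had 5.65, 6.81 and 5.97 at 14 °C, against 9.97, 10.05 and 10.26 at 30 °C (change -3.95, SE 0.63, adjusted p 0.000215). *CG12693* (change -4.67) and *dcma* (-3.91) were well above background on 2 and 1 of 3 arrays at 14 °C, and *Mst57Db*, an accessory gland gene, fell by at least 9.99-fold.

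**Figure D2:**
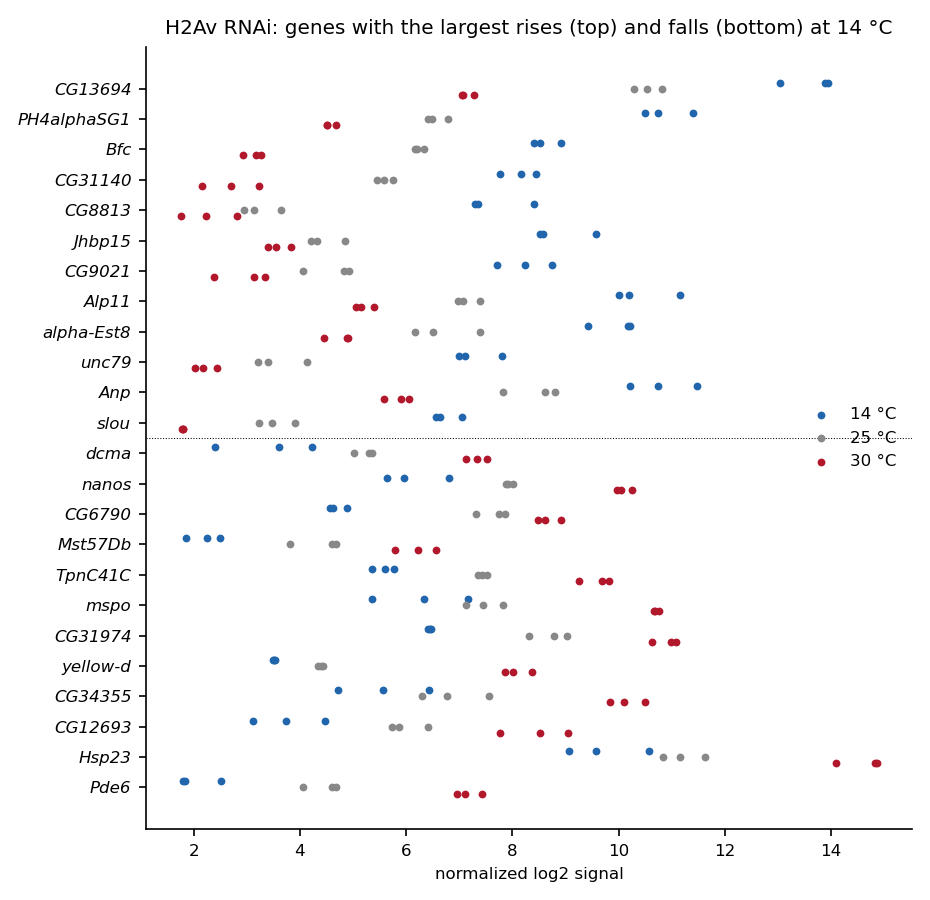
Normalized log2 signal (x axis) of the 12 genes with the largest rises and the 12 with the largest falls at 14 °C in H2Av RNAi (y axis), with a point for each of the 3 arrays at 14, 25 and 30 °C. The arrays at 14 and 30 °C do not overlap for any of these genes, as the rule for choosing them required; *CG13694*, for example, had a change of 6.49.

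DNA replication genes fell together at 14 °C. Of 46 measured genes, 31 (67.4%) fell and 0 rose, against 12% and 10.5% of all genes measured, and the median change was -1.39, against -0.03. The remaining 15 genes were not called, and 13 of them had a change below 0. The count was 30 to 32 when single arrays were left out. The MCM helicase, a ring of 6 subunits that unwinds DNA at forks, fell as a whole. *Mcm2* had 12.61, 12.29 and 12.52 at 14 °C, against 14.81, 14.98 and 15.05 at 30 °C (change -2.47, SE 0.17), or 5.55-fold lower (adjusted p 2.04e-07). The other subunits changed by -2.28 (*Mcm5*), -2.08 (*Mcm3*), -1.88 (*dpa*, the fly's Mcm4), -1.63 (*Mcm6*) and -1.56 (*Mcm7*). No array at 14 °C reached the 30 °C level for any of the 6 subunits.

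The origin recognition complex, which binds origins and loads the MCM ring, had all 5 measured subunits called lower, with a median change of -2.30. *Orc5* had 8.18, 7.17 and 7.54 at 14 °C, against 10.78, 10.79 and 10.71 at 30 °C (change -3.13, SE 0.28, adjusted p 1.7e-06), while its other, dimmer probe had a smaller fall of -1.30. *Orc6* had 9.48, 8.97 and 9.61 at 14 °C, against 12.14, 12.12 and 12.29 at 30 °C (change -2.83, adjusted p 1.49e-06). *Orc1* had 12.26, 12.03 and 11.40 at 14 °C, against 14.41, 14.48 and 13.71 at 30 °C (change -2.30, adjusted p 0.000101). Replicate 3 was the lowest *Orc1* array at both temperatures. *Orc2* and *Orc4* changed by -1.74 and -1.65.

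Genes of other steps of replication were called in part. Of the licensing factors, 3 of 4 were called, among them *dup*, which encodes Cdt1 (-1.64, adjusted p 6.92e-07). Of the polymerase and primase genes, 5 of 6 fell, with *PolA2* at -1.83. Of the clamp, clamp loader and single-strand binding genes, 4 of 8 fell, among them *PCNA*, the sliding clamp, with 15.69, 15.36 and 15.46 at 14 °C, against 17.02, 17.08 and 16.89 at 30 °C (change -1.49, adjusted p 0.0005). In the CMG helicase, the partners of MCM were split, with 2 of 5 GINS and Cdc45 genes called. *Psf1* changed by -2.13, whereas the values of *Psf2* and *Psf3* were 0.03 (adjusted p 0.896) and 0.28 (adjusted p 0.338). Both subunits of ribonucleotide reductase, which makes deoxyribonucleotides, fell, *RnrS* by 1.54 and *RnrL* by 1.42 on the log2 scale. Of the genes that control entry into S phase, *CycE* fell (-1.37, adjusted p 0.00105), while *E2f1*, the activator of replication genes, had 16.03, 16.03 and 16.06 at 14 °C, against 15.97, 16.34 and 16.20 at 30 °C (change -0.13, adjusted p 0.601).

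Of 67 measured genes of mitosis, 18 (26.9%) fell and 1 rose, with a median change of -0.64. *Nuf2*, of the kinetochore's microtubule-binding complex, had 11.89, 11.50 and 11.81 at 14 °C, against 13.47, 13.40 and 13.73 at 30 °C (change -1.80, SE 0.19, adjusted p 8.93e-06). The falls included 3 of 5 condensin genes, *glu* (-1.76, adjusted p 3.2e-06), *Cap-D2* (-1.45) and *SMC2* (-1.40), which compact chromosomes. *asp*, which focuses spindle poles, had -1.65 (adjusted p 0.000202), and *thr*, which acts in sister separation, had -1.60 (adjusted p 7.19e-06). Both Cdc25 phosphatase genes were among them, *twe* with -1.54 and *stg*, which triggers entry into mitosis, with -1.49. *pbl*, the RhoGEF of cytokinesis, had -1.48 and *Cenp-C* of the centromere -1.39. The gene that rose was *Cks85A*, a Cdk-binding subunit (1.21, adjusted p 0.00031). Not called were the mitotic kinase genes *Cdk1* (-0.58), *polo* (-0.52) and *aurA* (-0.59), and *CycB* (-0.43).

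Of 25 measured genes of histones and histone chaperones, 9 (36%) fell and 0 rose, with a median change of -0.67. All 3 genes of CAF-1, which deposits histones behind the fork, fell. The gene of its p180 subunit had 11.39, 11.24 and 10.97 at 14 °C, against 13.50, 13.52 and 12.93 at 30 °C (change -2.12, SE 0.22, adjusted p 7.04e-06), and those of the p55 and p105 subunits changed by -1.53 and -1.34. *Slbp*, which binds the stem-loop of replication-dependent histone mRNAs, had 13.88, 13.78 and 14.06 at 14 °C, against 15.39, 15.46 and 15.71 at 30 °C (change -1.62, adjusted p 2.46e-05). The FACT genes *dre4* (-1.14) and *Ssrp* (-1.07; -0.89 with scaling to the 75th percentile, which is no longer 2-fold) fell by little more than the threshold. *cid*, the centromeric H3 variant, changed by -1.44 (adjusted p 3.21e-05). Of the chaperones of replication-independent assembly, not called, *Hira* was at 0.64 (adjusted p 0.000907) and *yem* was at -0.10 (adjusted p 0.632).

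Among 17 measured genes of the Domino and Tip60 complex, 2 fell and 0 rose (median -0.06). *Nipped-A*, a scaffold subunit, had 14.45, 14.52 and 14.48 at 14 °C, against 15.58, 15.54 and 16.02 at 30 °C (change -1.23, SE 0.16, adjusted p 4.05e-05). The other was the actin gene *Act87E* (-1.54), which the list of muscle markers also held and which is dim. Of 23 Polycomb group and HP1 genes, 3 fell and 0 rose (median -0.47), among them *HP1c* (-1.24, adjusted p 8.32e-05). Of 29 genes of DNA damage and apoptosis, 4 fell and 2 rose (median -0.34). *Claspin*, which links stalled forks to the checkpoint, had 11.42, 11.30 and 11.54 at 14 °C, against 13.35, 13.36 and 13.46 at 30 °C (change -1.97, SE 0.19, adjusted p 2.98e-06). *nbs*, of the MRN complex that senses breaks, had -1.46 (adjusted p 2.88e-05), and *Corp*, an inhibitor of p53, rose by 2.31 (adjusted p 0.00669).

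**Figure D3:**
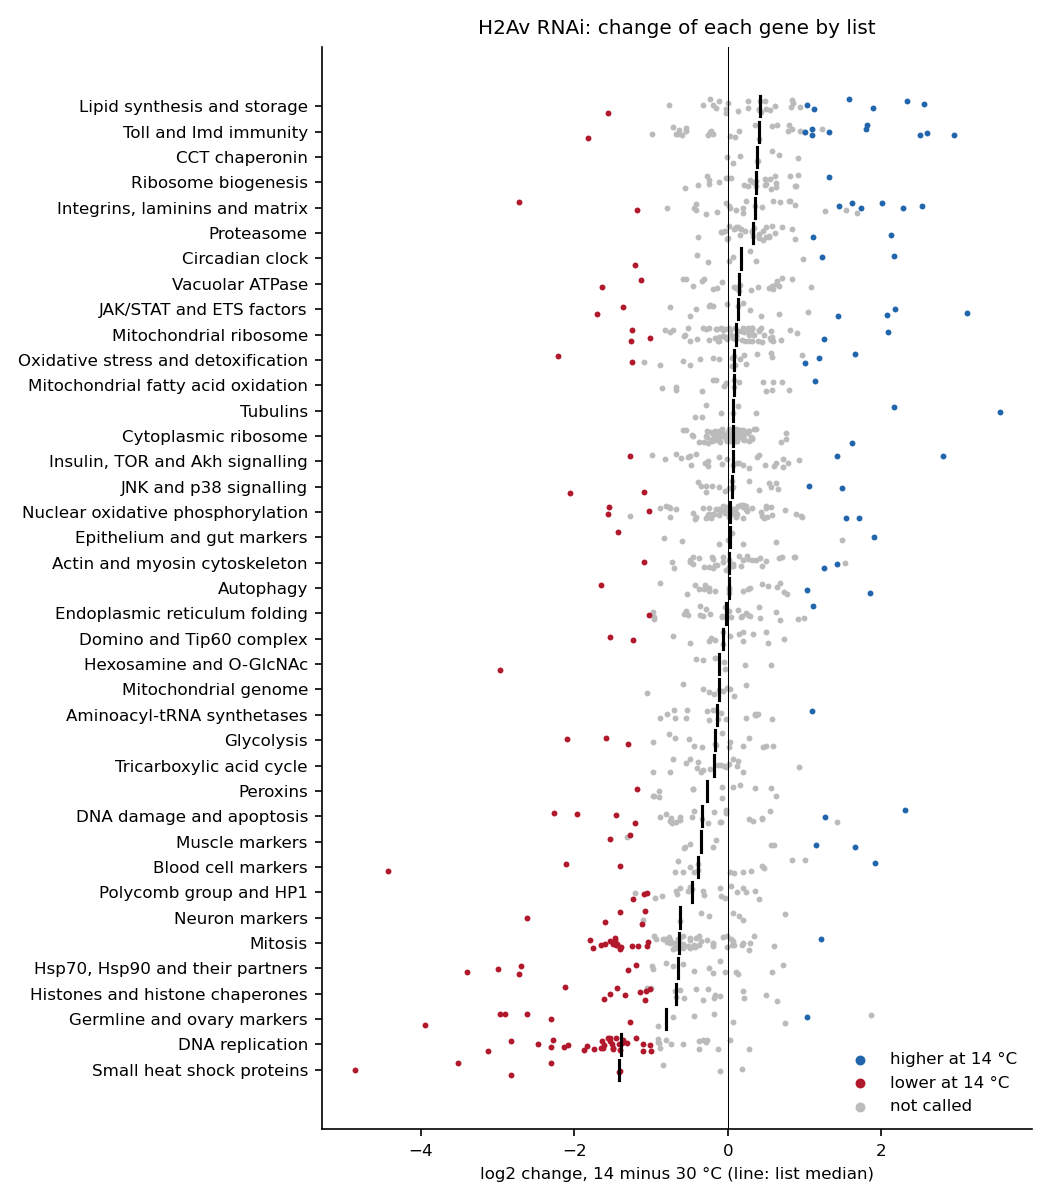
Each point is a gene, plotted by its log2 change, 14 minus 30 °C, in H2Av RNAi (x axis) within each gene list (y axis, ordered by the list's median, shown as a black line). Small heat shock proteins (median -1.42) and DNA replication (-1.39) lie lowest, and lipid synthesis and storage (0.42) and Toll and Imd immunity (0.40) highest.

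Small heat shock protein genes were lower at 14 than at 30 °C. Of 9 measured genes 6 fell and 0 rose, with a median change of -1.42. Beside *Hsp23*, *Hsp22* of mitochondria had 11.31, 12.02 and 12.38 at 14 °C, against 15.03, 15.50 and 15.74 at 30 °C (change -3.52, SE 0.55, adjusted p 0.000184). *Hsp27*, which also enters nuclei, had 9.86, 10.49 and 11.23 at 14 °C, against 12.81, 13.45 and 13.80 at 30 °C (change -2.82, adjusted p 0.000178). In *Hsp22*, *Hsp23* and *Hsp27*, replicate 1 was the lowest and replicate 3 the highest array at both temperatures. *Hsp26* changed by -2.30, *Hsp67Bc* by -1.42 and *Hsp67Ba* by -1.40. Of the 3 not called, *l(2)efl* had -0.10 (adjusted p 0.913) and *CG14207* 0.18 (adjusted p 0.69).

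Of 20 measured genes of Hsp70, Hsp90 and their partners, 6 fell and 0 rose (median -0.65). *Hsp70Bb* had 11.43, 10.56 and 11.25 at 14 °C, against 14.25, 14.96 and 14.23 at 30 °C (change -3.40, SE 0.31, adjusted p 2.55e-06), a difference wider than the range within either temperature. *Hsp70Aa* and *Hsp70Bc* changed by -2.72 and -2.70, and *Hsp70Ba* averaged 10.61 at 14 °C, against 13.61 at 30 °C (adjusted p 5.34e-06). These inducible copies are nearly identical in sequence, so their probes may read each other's transcripts and which copy changed is uncertain. *Trap1*, the Hsp90 of mitochondria, had -1.30 (adjusted p 0.000489), and *Hsp68* had -1.20 (adjusted p 0.00221; -0.98 without replicate 2 at 14 °C). The constitutive chaperones and their regulator were not called. *Hsp83*, the Hsp90 of the cytosol, had 18.13, 17.99 and 17.90 at 14 °C, against 17.86, 17.86 and 17.90 at 30 °C (change 0.13, adjusted p 0.702), *Hsc70-4* had -0.20 (adjusted p 0.246), and *Hsf*, the heat shock transcription factor, had 0.11 (adjusted p 0.513).

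The CCT chaperonin, which folds actin and tubulin, had 8 measured subunits, of which 0 were called by limma, and 7 had a change above 0 (median 0.38). *CCT5* had 16.30, 16.02 and 16.13 at 14 °C, against 15.03, 15.17 and 15.53 at 30 °C (change 0.91, SE 0.19, adjusted p 0.00148), just short of 2-fold, and reached 1.20 with scaling to the 75th percentile and 1.05 without replicate 3 at 30 °C. Of the 8 subunits, 3 had an adjusted p under 0.05, a share close to the 40.2% of all probes tested. Of 31 genes of folding in the endoplasmic reticulum, 1 rose and 1 fell. Of 33 proteasome genes, 2 rose and 0 fell (median 0.33). *Prosbeta3*, of the core particle, had 14.31, 14.42 and 14.30 at 14 °C, against 12.11, 12.20 and 12.38 at 30 °C (change 2.12, SE 0.20, adjusted p 2.55e-06), and *Rpt2*, an ATPase of the cap, had 1.11 (adjusted p 0.000472).

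Of 35 measured genes of the Toll and Imd pathways, 9 (25.7%) rose and 1 fell, with a median change of 0.40. Of 11 antimicrobial peptide genes, 4 rose and 1 fell. *CecA1* had 10.23, 10.94 and 11.19 at 14 °C, against 7.48, 7.92 and 8.14 at 30 °C (change 2.94, SE 0.39, adjusted p 4.6e-05). *CecC* had 10.50, 10.43 and 11.66 at 14 °C, against 8.04, 8.35 and 8.43 at 30 °C (change 2.59, adjusted p 1.98e-05), and *CecA2* and the attacin gene *AttD* had 2.50 and 1.81. These cecropins are closely related in sequence, so their values are not fully separate. *DptB*, a diptericin gene that fell, averaged 6.08 at 14 °C, against 7.90 at 30 °C (change -1.82, adjusted p 0.000498). Not called were *Drs* (0.99, adjusted p 0.188) and *DptA* (-0.26, adjusted p 0.577).

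Of 22 immune receptors and signalling genes, 5 rose and 0 fell. *Dredd*, the caspase that cleaves Relish, averaged 13.35 at 14 °C, against 12.05 at 30 °C (change 1.31, SE 0.18, adjusted p 6.32e-05). *key*, the IKK gamma subunit of the Imd pathway, had 15.84, 15.80 and 15.79 at 14 °C, against 14.79, 14.70 and 14.67 at 30 °C (change 1.09, adjusted p 0.000255). The amidase gene *PGRP-LB*, which lowers the amount of peptidoglycan, had 1.80 (adjusted p 0.0019) but only 0.50 with normexp correction. *Rel*, the transcription factor of the pathway, had 0.35 (adjusted p 0.0991). Blood cell markers did not move one way, with 1 of 19 higher and 3 lower (median -0.39) and a summed level of 17.26 to 17.68 at 14 °C and 17.34 to 17.53 at 30 °C. *drpr*, an engulfment receptor, had 10.95, 11.83 and 11.79 at 14 °C, against 8.95, 9.82 and 10.07 at 30 °C (change 1.91, adjusted p 0.00179), although its other probes had -0.05 to 0.57. *mspo*, named above, was 1 of the 3 lower markers. *Hml*, a marker of plasmatocytes, had 6.38, 5.07 and 6.17 at 14 °C, against 7.49, 8.40 and 8.06 at 30 °C (change -2.11, adjusted p 0.000813).

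Adhesion and matrix genes changed in both directions. Of 31 measured genes of integrins, laminins and matrix, 6 (19.4%) rose and 2 fell (median 0.35), and 4 to 8 rose when single arrays were left out. *trol*, the basement membrane proteoglycan perlecan, had 13.66, 14.55 and 13.98 at 14 °C, against 11.63, 11.72 and 11.26 at 30 °C at its brightest probe (change 2.53, SE 0.34, adjusted p 5.37e-05). Its other probes ranged from -2.88, called lower, to 2.74. *Tig*, the integrin ligand tiggrin, averaged 13.61 at 14 °C, against 11.88 at 30 °C (change 1.73, adjusted p 7.36e-06). The integrin alpha subunit genes *if* (1.61, adjusted p 0.00109) and *scb* (1.45, adjusted p 0.00208) rose. *Loxl1*, a lysyl oxidase that crosslinks collagen, had 4.04, 4.26 and 3.82 at 14 °C, against 6.86, 6.73 and 6.70 at 30 °C (change -2.72, adjusted p 2.18e-05), but was well above background on 1 of 3 arrays at 14 °C, and *Plod*, a lysyl hydroxylase, had -1.19. The collagen IV genes *Col4a1* (0.03, adjusted p 0.966) and *vkg* (-0.44, adjusted p 0.413) were not called.

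Of 9 measured tubulin genes 2 rose, led by *betaTub97EF* with 14.57, 14.85 and 14.76 at 14 °C, against 10.33, 11.56 and 11.66 at 30 °C (change 3.54, SE 0.34, adjusted p 3.7e-06). Of 39 actin and myosin genes, 2 rose and 1 fell (median 0.02). *WASp*, an activator of branched actin assembly, had 10.37, 10.57 and 10.03 at 14 °C, against 8.88, 8.77 and 9.06 at 30 °C (change 1.42, adjusted p 3.81e-05).

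Lipid genes included 6 of 31 (19.4%) that rose and 1 that fell, with a median change of 0.42. Membrane lipid enzymes were among those that rose. *Agpat2*, which makes phosphatidic acid, had 12.12, 12.80 and 11.60 at 14 °C, against 10.37, 9.59 and 9.58 at 30 °C (change 2.33, SE 0.40, adjusted p 0.00042). *Pcyt1*, the rate-limiting enzyme of phosphatidylcholine synthesis, had 15.34, 15.50 and 14.99 at 14 °C, against 14.31, 13.99 and 14.17 at 30 °C (change 1.12, adjusted p 0.000111). The paralogous desaturase genes, whose enzymes insert double bonds into acyl chains, moved in opposite directions. *Desat1* had 14.96, 14.65 and 14.52 at 14 °C, against 16.64, 16.23 and 15.92 at 30 °C (change -1.56, adjusted p 0.000892). *Desat2* had 8.10, 7.58 and 8.57 at 14 °C, against 6.12, 5.88 and 6.60 at 30 °C (change 1.89, adjusted p 0.00175). The arrays of both temperatures did not overlap in either case. *FASN2*, a fatty acid synthase, had 2.55 (adjusted p 0.000462), whereas the brighter *FASN1* had 0.48 (adjusted p 0.122), and *SREBP*, the regulator of lipid synthesis, had -0.02 (adjusted p 0.957).

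At their representing probes, 0 of 20 genes of the tricarboxylic acid cycle and 0 of 11 of the mitochondrial genome were called by limma. Other probes of the mitochondrial genes *ND4* and *ND5*, which encode subunits of complex I, were called, 1 of *ND4* with 1.38 (adjusted p 0.0195) and those of *ND5* with 1.34 (adjusted p 0.0238) and 2.27 (adjusted p 0.00239), while their representing probes had -0.06 and -0.24. For the last of these *ND5* probes the interaction described below was 3.82 (adjusted p 0.0285). At the representing probes, 2 of 71 nuclear genes of oxidative phosphorylation rose and 3 fell (median 0.03). Of 18 genes of mitochondrial fatty acid oxidation, 1 rose. *COX4L*, a dim paralogue of a cytochrome oxidase subunit, had 8.62, 8.93 and 9.33 at 14 °C, against 7.36, 7.04 and 7.33 at 30 °C (change 1.71, adjusted p 0.00037), and *ATPsynepsilonL* had -1.55 (adjusted p 0.0034). Of 19 glycolysis genes, 3 fell and 0 rose. *Pgm1*, which encodes phosphoglucomutase, had 12.64, 12.57 and 12.98 at 14 °C, against 13.98, 14.30 and 13.80 at 30 °C (change -1.30, SE 0.21, adjusted p 0.000289). *Gfat1*, which feeds the hexosamine pathway, was the only called gene of the 8 in its list (-2.97, adjusted p 0.00144). It was well above background on 2 of 3 arrays at 14 °C, and its array values at 14 °C were spread from 3.47 to 5.82.

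Signalling genes changed singly. Of 31 genes of insulin, TOR and Akh signalling, 2 rose and 1 fell. *Akh*, the adipokinetic hormone, had 9.05, 9.44 and 9.17 at 14 °C, against 6.68, 6.46 and 6.12 at 30 °C (change 2.80, SE 0.30, adjusted p 8.08e-06), and *Sesn*, which restrains TOR, had -1.28 (adjusted p 0.000664) with 0.75 at its other probe. Of 19 genes of JAK/STAT signalling and ETS factors, 4 rose and 2 fell. *pst* had 14.08, 14.08 and 14.14 at 14 °C, against 10.80, 10.97 and 11.18 at 30 °C (change 3.11, adjusted p 6.99e-07), and the ETS factor gene *Ets21C* had 12.49, 12.18 and 12.01 at 14 °C, against 9.79, 10.35 and 9.99 at 30 °C (change 2.18, adjusted p 5.21e-06). *et*, a negative regulator of JAK/STAT receptor signalling, had -1.70 (adjusted p 0.000909). Of 10 clock genes 2 rose and 1 fell. *cwo*, a repressor of the clock, had 13.84, 13.90 and 13.53 at 14 °C, against 12.52, 12.56 and 12.50 at 30 °C (change 1.23, adjusted p 1.75e-05), and *cyc*, an activator, had -1.21 (adjusted p 8.43e-05). The largest change of the list was a rise of *Clk*, also an activator (2.16, adjusted p 0.000546). *Clk* was well above background on 1 of 3 arrays at 30 °C. Of 21 JNK and p38 genes 2 rose and 2 fell, among them *p38c* (1.49, adjusted p 0.000344). Of 23 genes of oxidative stress and detoxification, 3 rose and 2 fell, among them *GstD2* (1.65, adjusted p 0.00353).

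Of 92 measured genes of the cytoplasmic ribosome, 1 rose and 0 fell, with a median change of 0.07. The gene that rose was the dim *RpS28-like*, well above background on 1 of 3 arrays at 30 °C, with a change of 1.62 that was not called with normexp correction. Of 70 genes of the mitochondrial ribosome, 2 rose and 3 fell, of 20 tRNA synthetases 1 rose, and of 28 ribosome biogenesis genes 1 rose. That was *Nmd3*, the export adaptor of the large subunit, with 16.20, 16.10 and 16.08 at 14 °C, against 14.82, 14.86 and 14.77 at 30 °C (change 1.31, SE 0.13, adjusted p 4.25e-06). *mRpL9* fell by 1.26 on the log2 scale (adjusted p 5.66e-05). Of 24 autophagy genes 2 rose and 1 fell, and *Atg10* and *Atg4a* stood on opposite sides with 1.85 (adjusted p 1.93e-05) and -1.65 (adjusted p 2.93e-06). Of 26 genes of the vacuolar ATPase, 2 fell, both dim, and of 14 peroxins 1 fell.

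Markers of cell types other than blood cells were examined as well. Of 14 germline and ovary markers, 6 (42.9%) fell and 1 rose (median -0.81). *piwi*, a guardian against transposons, had 5.17, 5.41 and 5.57 at 14 °C, against 8.05, 8.19 and 8.60 at 30 °C (change -2.90, SE 0.38, adjusted p 4.33e-05), and *bgcn*, of the germ cell differentiation pathway, had 6.70, 7.32 and 7.19 at 14 °C, against 9.25, 9.57 and 10.23 at 30 °C (change -2.61, adjusted p 3.27e-05). *vas*, the defining marker of germ cells, was not called (-0.18, adjusted p 0.733). Of other piRNA pathway genes, *AGO3* had -1.27 (adjusted p 0.000615) and *aub* 1.03 (adjusted p 5.46e-05; 0.90 without replicate 1 at 30 °C, which leaves 0 rising markers). The summed level of the germline list was 13.73 to 13.87 at 14 °C and 13.86 to 14.03 at 30 °C. Of 13 neuron markers 5 fell and 0 rose (median -0.63), all of them dim but *cpx*. This count was 2 without replicate 1 at 14 °C and 1 with normexp correction. *ChAT*, choline acetyltransferase, had 3.71, 3.94 and 4.64 at 14 °C, against 6.71, 6.61 and 6.82 at 30 °C (change -2.62, adjusted p 5.04e-05), and was well above background on 2 of 3 arrays at 14 °C. *elav*, the defining marker of neurons, had 0.07 (adjusted p 0.897). The summed level of the neuron list was 15.49 to 15.88 at 14 °C and 16.02 to 16.14 at 30 °C. Of 12 muscle markers 2 rose and 2 fell, and of 10 epithelium and gut markers 1 rose and 1 fell.

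The means at 25 °C, which did not enter the change between 14 and 30 °C, showed where the change occurred. The 25 °C arrays did enter the estimate of the spread behind its p-values. Between 14 and 25 °C 1576 probes (7.59%) were called, and between 25 and 30 °C 1468 (7.07%), although the span in degrees is wider for the cooler step. Of the 5210 probes called over the whole span, 4771 (91.6%) had a 25 °C mean between the other means, at a median of 50.5% of the way. Of these 5210, 1346 were also called between 14 and 25 °C and 1267 between 25 and 30 °C, with 270 called in both and 2867 in neither. These contrasts share arrays, so the position of the 25 °C mean is given as a description.

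The calls in each step were counted for the gene groups. Of 46 DNA replication genes, 20 were called between 14 and 25 °C and 1 between 25 and 30 °C. All 6 MCM genes and all 5 measured ORC genes were called in the cooler step. *Mcm2*, for example, had 14.43, 14.06 and 14.36 at 25 °C, with -1.81 for 14 minus 25 °C (adjusted p 1.88e-05) and -0.66 for 25 minus 30 °C (adjusted p 0.0192). Mitosis genes had 8 and 0 calls. There were 0 calls between 14 and 25 °C and 5 between 25 and 30 °C among genes of Hsp70, Hsp90 and their partners, and 2 and 4 calls among small heat shock proteins. *Hsp70Bb* had 11.90, 12.08 and 11.61 at 25 °C, near its 14 °C level, with -0.78 for 14 minus 25 °C (adjusted p 0.116) and -2.62 for 25 minus 30 °C (adjusted p 0.000195). *Hsp26* had -0.09 (adjusted p 0.905) for the cooler step and -2.22 (adjusted p 0.000904) for the warmer step, whereas *Hsp22* had -2.39 (adjusted p 0.00954) and -1.13 (adjusted p 0.194). Whether the steps differed from each other was not tested. Toll and Imd genes had 3 and 5 calls. For the cooler and then the warmer step, the change was 0.80 and 2.31 for *pst*, 1.10 and 2.44 for *betaTub97EF*, 2.03 and 0.77 for *Akh*, and 2.47 and 0.09 for *FASN2*.

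**Figure D4:**
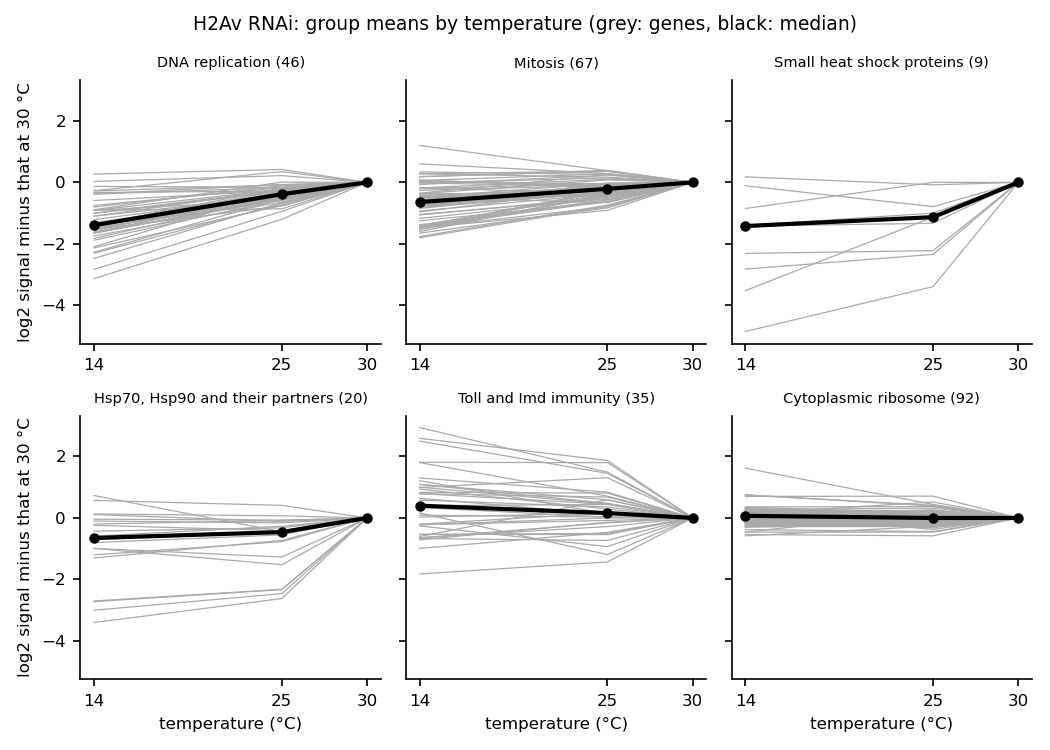
Mean log2 signal at 14, 25 and 30 °C minus that at 30 °C (y axis) against temperature (x axis) for the genes of 6 lists in H2Av RNAi, with genes in grey and the median in black. DNA replication genes have a median of -0.385 at 25 °C and -1.39 at 14 °C. The lowest Hsp70 genes are already low at 25 °C, and genes of the cytoplasmic ribosome stay near 0 (median 0.07 at 14 °C).

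The same span of temperature in lacZ RNAi called 4101 probes (19.7%). The tested probes had been chosen by their signal on the H2Av RNAi arrays, and so had the probe representing each gene. Probes with signal in lacZ RNAi only were therefore not tested. Counts, shares and overlaps of lacZ RNAi are thus not on an equal footing with those of H2Av RNAi. Over all 9526 genes measured, 854 were higher and 923 lower in lacZ RNAi, with a median change of -0.02. The medians of the lists in lacZ RNAi were -0.97 for DNA replication (23 of 46 genes lower), -0.32 for mitosis (11 of 67 lower), -1.56 for small heat shock proteins (6 of 9 lower), -0.61 for histones and histone chaperones (5 of 25 lower) and 0.34 for Toll and Imd immunity (9 of 35 higher and 3 lower). Whether the lists differed between the RNAi groups was not tested. Called in both RNAi groups were 3089 probes, which is 59.3% of those called in H2Av RNAi and 75.3% of those called in lacZ RNAi. The direction was the same for 3075 of them and opposite for 14. A larger count in one group does not show a larger response, so the interaction, the difference between the 2 changes (H2Av RNAi less lacZ RNAi), was tested for every probe. It was called for 80 probes (0.385%), 62 positive and 18 negative, and for 50 of the 5210 probes called in H2Av RNAi (0.96%). Both contrasts use the same H2Av RNAi arrays, so the higher share among the 5210 probes is not a separate result. With the replicate number as a block, the interaction was called for 51 probes. The interaction was called for no gene of the DNA replication and small heat shock protein lists at its representing probe, and for 1 mitosis gene. The dimmer probe of *Orc5*, with -1.30 in H2Av RNAi and 0.12 in lacZ RNAi, had an interaction of -1.42 (adjusted p 0.014).

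*Nprl2*, of the GATOR1 complex that restrains TOR, had 8.12, 8.49 and 8.29 at 14 °C, against 6.84, 6.93 and 6.88 at 30 °C in H2Av RNAi, and 8.36, 8.03 and 8.10, against 8.45, 8.85 and 8.19, in lacZ RNAi. Its change was 1.42 in H2Av RNAi and -0.34 in lacZ RNAi, an interaction of 1.75 (limma adjusted p 0.00693). The H2Av RNAi arrays at 30 °C were the low ones, and the other 3 groups overlapped. *Nagk*, N-acetylglucosamine kinase, had 11.20, 11.26 and 11.21 at 14 °C, against 10.96, 10.92 and 11.14 at 30 °C in H2Av RNAi, and 11.65, 11.38 and 11.54, against 9.44, 9.84 and 9.54, in lacZ RNAi (interaction -1.70, adjusted p 0.00693). Here the lacZ RNAi arrays at 30 °C stood apart. Both interactions were called under all 15 alternatives. The condensin gene *glu* (-1.22, adjusted p 0.0381), the histidyl-tRNA synthetase gene *HisRS* (2.06, adjusted p 0.038) and the RNA helicase gene *Dbp45A* (2.72, adjusted p 0.0477) passed narrowly and were called under 2, 1 and 2 of 15 alternatives. With the replicate block they were no longer called, with an adjusted p of 0.0812 for *glu*, 0.056 for *HisRS* and 0.0915 for *Dbp45A*, and the interaction of *Dbp45A* was 1.43 with normexp correction. Within H2Av RNAi, *HisRS* changed by 1.09, which was 0.90 without replicate 3 at 30 °C and 0.96 without replicate 2 at 14 °C.

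**Figure D5:**
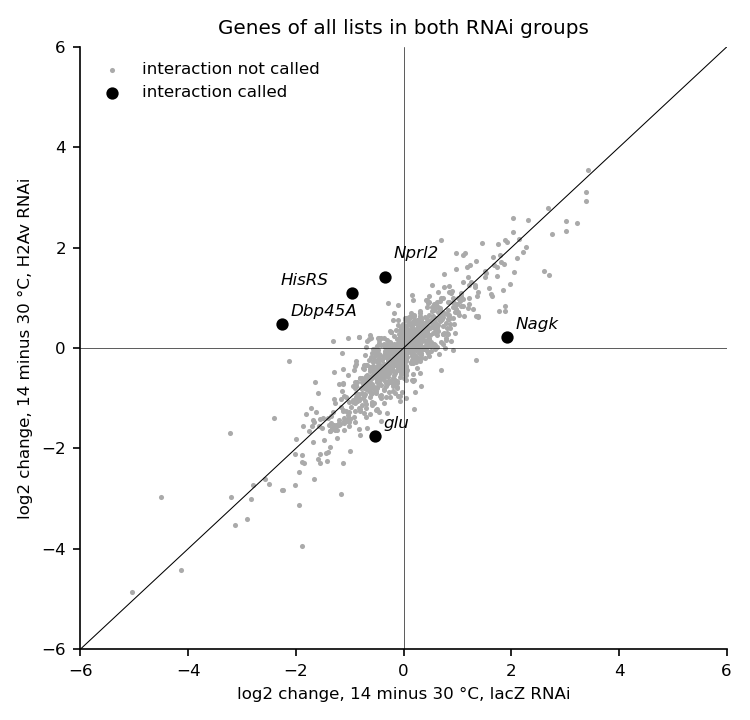
Log2 change, 14 minus 30 °C, in H2Av RNAi (y axis) against that in lacZ RNAi (x axis) for the 1040 genes of all lists, with the line of equal change and the 5 genes whose interaction was called labelled. *Nprl2*, *HisRS* and *Dbp45A* lie above the line and *Nagk* and *glu* below it.

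Different probes of a gene can report different transcript ends or isoforms. Of 446 genes with at least 2 called probes, 18 (4.04%) had probes called in opposite directions, and 9 with normexp correction. *trol* had 8.91, 9.24 and 8.28 at 14 °C, against 6.37, 6.12 and 5.73 at 30 °C for the probe of transcript RB (change 2.74, adjusted p 0.00232), but 5.32, 5.68 and 5.58 at 14 °C, against 8.11, 8.69 and 8.43 at 30 °C for the probe of transcript RF (change -2.88, adjusted p 1.9e-07). Both probes were well above background on all arrays. The brightest *trol* probe is also labelled with transcript RF and rose by 2.53. The labels therefore do not tie each direction to a transcript. *Alh*, a chromatin factor gene, had 9.32, 9.36 and 9.50 at 14 °C, against 6.75, 6.81 and 7.02 at 30 °C for transcript RE (change 2.54, adjusted p 2.33e-06), and 7.42, 6.51 and 5.69, against 8.60, 8.40 and 8.12, for transcript RA (change -1.83, adjusted p 0.00146). *cg*, which encodes the zinc finger protein combgap, had 1.47 (adjusted p 0.000123) for transcript RB and -2.65 (adjusted p 8.05e-06) for transcript RF. *Svil*, a supervillin gene, had 3.18 (adjusted p 1.03e-05) and -1.22 (adjusted p 0.000555) at probes designed to gene models that are now joined. The opposed probes of *rsh* (4.03 and -2.15) and those of *CG10431* were not well above background on all arrays. For *trol*, *Alh* and *Svil* the lacZ RNAi arrays gave the same signs, with 3.15 and -2.11, 2.23 and -0.65, and 2.66 and -0.94.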

How the data were processed

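RNA of S2R+ cells was labelled with Cy3 and hybridized to 18 one-colour Agilent arrays (design 018972), 6 of them H2Av RNAi at 14 or 30 °C. Replicates are 3 processed samples a group, and their number limits the precision. The deposited scanner files hold spot intensity values, which the authors extracted with Agilent Feature Extraction 10.7.3.1 (background subtracted, per the file headers) together with flags for background, saturation and outliers. The deposited value table holds log2 values; for this experiment the authors' methods name quantile normalization with preprocessCore, and other steps behind that table are not given in the sources used here. It served as an alternative. All value columns were assigned to samples, and 0 were left out. Spots flagged as outliers were dropped, spots of a probe were combined by the median, and log2 intensity was quantile normalized over the 18 arrays. No spot was saturated. Genes were named through the CG number or RefSeq accession of a probe (19480 of 32162 probes). Group means of the 18 arrays were fitted with limma 3.58.1 in R 4.3.3 (lmFit, contrasts.fit, eBayes, two-sided), with Benjamini-Hochberg adjustment over 20765 probes. A probe was called at an adjusted p under 0.05 and a change of at least 2-fold. Tables were made with Python 3.11.15 and pandas 2.3.3.

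Named genes were *His2Av* and *Act5C*, the 12 largest rises and 12 largest falls among called probes with a symbol and without overlap, and up to 4 genes with the largest change of each list. Others, such as single subunits, uncalled regulators, *Cdk1*, *elav* or *Col4a1*, were added after their values were seen. The members, lists and tests were chosen with earlier results of these data known, and subgroups of lists with their values known. Same-numbered arrays tended to deviate together from their group means (r of 0.319, 0.111 and 0.389, against -0.338 to 0.17 for different numbers). The value for replicate 2 lay within the range for different numbers, so the data show a pairing only in part. The labels give only the number. The main fit left replicate numbers out, and the replicate block was an alternative. Alternatives were the 6 arrays alone, the replicate block, 75th percentile scaling, normexp background correction with an offset of 50, other filters and thresholds, the authors' table, and leaving out each array.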

Additional observations from a re-analysis of the deposited data

Results flagged for a closer look

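The change between 14 and 30 °C differed between H2Av and lacZ RNAi for 80 probes by limma's interaction test. The genes named for it are given here with the size of the difference (H2Av RNAi less lacZ RNAi), and its cause was not tested.

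*Nprl2* (1.75, adjusted p 0.00693), *Nagk* (-1.70, adjusted p 0.00693) and *Srg3* (3.13, adjusted p 0.00763) were called under all 15 alternatives, with a highest adjusted p of 0.0363, 0.0365 and 0.0365. *Srg3*, chosen after its value was seen, had 12.59, 13.01 and 13.30 at 14 °C, against 9.33, 8.97 and 8.60 at 30 °C in H2Av RNAi, and its change in lacZ RNAi was 0.87.

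*sls*, which encodes the titin-like protein of muscle and was chosen after its value was seen, had 6.03, 5.12 and 4.66 at 14 °C, against 3.79, 2.44 and 1.79 at 30 °C in H2Av RNAi. Its interaction of 4.51 (adjusted p 0.0111) was called under 14 of 15 alternatives, with a highest adjusted p of 0.153. With normexp correction it was 0.73. The levels were near background, and the brighter *sls* probe in the list of muscle markers changed by -0.56 in H2Av RNAi.

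*TM4SF*, a tetraspanin gene chosen after its value was seen, had 4.75, 4.28 and 4.99 at 14 °C, against 7.06, 6.69 and 6.49 at 30 °C in H2Av RNAi, and a change of 1.35 in lacZ RNAi. Its interaction of -3.42 (adjusted p 0.0285) was called under 8 of 15 alternatives, with a highest adjusted p of 0.0958. With normexp correction it was -1.30.

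*HisRS* had 10.92, 11.34 and 10.99 at 14 °C, against 10.17, 10.19 and 9.61 at 30 °C in H2Av RNAi, and 10.39, 10.34 and 10.45, against 11.14, 11.67 and 11.26, in lacZ RNAi. Its interaction was 2.06 (adjusted p 0.038), with a highest adjusted p of 0.182. *Dbp45A* had 5.50, 5.23 and 5.57 at 14 °C, against 5.01, 4.82 and 5.04 at 30 °C in H2Av RNAi, and 5.66, 5.02 and 5.49, against 7.42, 8.52 and 6.97, in lacZ RNAi, where the 30 °C arrays were the high ones. Its interaction was 2.72 (adjusted p 0.0477) and 1.43 with normexp correction, with a highest adjusted p of 0.153. *glu* had 12.03, 11.85 and 11.74 at 14 °C, against 13.51, 13.56 and 13.82 at 30 °C in H2Av RNAi, and 12.19, 11.77 and 11.89, against 12.53, 12.64 and 12.28, in lacZ RNAi. Its interaction was -1.22 (adjusted p 0.0381), with a highest adjusted p of 0.116.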

How the results depend on the processing

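The count of 5210 probes called between 14 and 30 °C was 2718 (1370 higher, 1348 lower) with normexp correction, 3010 (1510 and 1500) with the authors' log2 table and 8353 (3927 and 4426) without a limit on the fold change, and 4634 to 4951 (2188 to 2336 higher, 2438 to 2615 lower) without single arrays. Of the calls, 2651 remained with normexp correction and 2918 with the authors' table. The interaction count of 80 was 51 with the replicate block and 45 to 85 without single arrays, namely 48 without lacZ RNAi 14 °C replicate 2, 48 without its replicate 3, 52 without lacZ RNAi 30 °C replicate 1, 46 when H2Av RNAi 30 °C lacked replicate 1 and 45 when it lacked replicate 2. With normexp correction, 683 probes were called between 14 and 25 °C, 638 between 25 and 30 °C, 9 genes had opposed probes, and 1 neuron marker was lower (2 to 5 without single arrays). *His2Av* changed by -0.42 to 0.60 without single arrays, and *Act5C* by -0.10 to 0.03, by 0.27 with 75th percentile scaling and by 0.00 with normexp correction. With the replicate block 5711 probes were called between 14 and 30 °C (2745 higher, 2966 lower); *Sod3* (adjusted p 0.0526) and *UQCR-11L* (adjusted p 0.0803) were no longer called, nor were the interactions of *glu* (adjusted p 0.0812), *HisRS* (0.056) and *Dbp45A* (0.0915), and no other call of a named gene changed. Of 191 named probes, 54 changed their side of the threshold in at least 1 alternative; the causes were not tested. The number of 3 arrays a group limits the precision, and levels near background are the least certain.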

Other observations

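Some gene families were counted after their values had been seen, and are given as values beside 10.5% higher and 12% lower genes over all. Of 28 measured tetraspanin genes, which encode membrane organizers, 10 were higher and 3 lower at 14 °C (median 0.54). Of 16 odorant-binding protein genes 7 were higher and 2 lower (median 0.90), of 31 cuticular protein genes 10 and 5 (median 0.40), of 17 serpin genes, which encode protease inhibitors, 5 and 1 (median 0.09), and of 56 cytochrome P450 genes 9 and 11 (median -0.25). Of 30 odorant and gustatory receptor genes 11 were higher and 12 lower. Most genes of these families lacked signal: 16 of 50 odorant-binding, 31 of 91 cuticular and 30 of 115 receptor genes on the array were measured. A probe was tested when it had signal at either temperature, so a dim gene could enter through its higher temperature alone. This filter can raise the counts of called genes in such families, and by how much was not tested. Of 4 measured prolyl 4-hydroxylase alpha genes 2 were higher, *PH4alphaSG1* and *PH4alphaNE1*. *PH4alphaNE1* had no signal well above background at 30 °C.

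By chromosome, the share of tested probes that was higher ranged from 8.67% on 2L to 10.4% on 3R among the long arms and was 4.92% of 183 probes on chromosome 4, and the share that was lower ranged from 11.0% on the X to 14.8% on 2R.

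For some genes replicate 1 was the low array at both temperatures. *atilla*, a marker of lamellocytes, had 5.26, 9.04 and 8.44 at 14 °C, against 7.22, 8.53 and 8.77 at 30 °C. *He*, a hemocyte marker, had 7.99, 10.83 and 10.44 at 14 °C, against 8.66, 9.98 and 10.37 at 30 °C. *Mmp1*, a matrix metalloproteinase gene, had 9.29, 11.62 and 10.77 at 14 °C, against 7.65, 9.31 and 9.69 at 30 °C, and *Drs*, an antifungal peptide gene, had 9.28, 10.98 and 11.09, against 8.77, 9.74 and 9.87. These genes were chosen after their values were seen.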
